A study of Capra hircus with 18 samples.

Results

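The genes described here are enzymes and enzyme partners of lipid and redox metabolism measured in the blood of transported goats. They were picked by name from the genes that the study listed as different between transported and control goats: the gene description had to contain dehydrogenase, reductase, synthase, oxidase, hydrolase, desaturase, acyl or uncoupling, to lack kinase, phosphatase, solute carrier, ATPase and channel, and to carry no label in the column headed as a transcription factor family. That rule found 26 of the 1557 listed genes, 7 of them in the 30 min table and 20 in the 180 min table, with ENTPD2 in both. The column used by the rule in fact holds protein domain names, so 23 further enzymes with a domain label stand outside the 26. The names were checked against known functions: 4 of the 26 (UCHL1, BLMH, CSKMT and PUSL1) are a deubiquitinating enzyme, a cysteine protease, a protein methyltransferase and an RNA-modifying enzyme, and are not metabolic enzymes of lipid or redox pathways. For another 3 (PTGES3L, ENTPD2 and NOSIP) the name fits only in part: they are a relative of a co-chaperone, an enzyme that splits extracellular ATP and a ubiquitin ligase.

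All animals were uncastrated male Spanish goats, 8 months of age, deprived of feed overnight and bled from the jugular vein after transport into tubes that fix RNA. Whole-blood RNA-seq was deposited for 18 goats: 7 control goats held in pens and not transported, 4 goats driven for 30 min over about 50 km, and 7 goats driven for 180 min over about 200 km in a livestock trailer. The question was which blood transcripts differ with transport and with its length. Each goat gave 1 sample and belonged to 1 group, the animals were handled on 2 days, and no label ties a goat to its day, which therefore entered no test. Both transport groups were compared with the same 7 control goats, so the comparisons are not independent of each other.

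Cholesterol is built from squalene by a chain of oxidations, demethylations and reductions in which SQLE, MSMO1, NSDHL and DHCR7 act one after another. Triglyceride, cardiolipin and glycogen are made by separate synthases from fatty acyl groups, phosphatidic acid and sugar nucleotides. In mitochondria the citric acid cycle feeds electrons to the respiratory chain, which drives ATP synthase, while methionine sulfoxide reductases repair oxidised protein residues. Circulating leukocytes use these pathways for membranes, fuel and defence, and mature red cells of goats have no nuclei and no mitochondria. In whole blood, fewer cells of a type and less RNA per cell cannot be told apart.

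Effective library sizes, derived from the deposited counts, lengths and FPKM values, ran from 10443023 to 39473244 reads in the control goats, from 13992574 to 22855051 in the 30 min goats and from 11290309 to 34125715 in the 180 min goats. One 180 min goat, goat 10, stood apart. The listed genes took 26.2% of its reads, against 7.93 to 14.3% in the other 6 goats of that group, and it had the smallest library of the group. Among the 17 members of the 180 min table with a mean of at least 50 normalized counts, goat 10 was the highest of its group in 4 and the lowest in 7. It was not alone in that count: control goat 3 was highest in 6 and lowest in 5, and control goat 9 highest in 6 and lowest in 2. Since goat 10 had the outlying share of reads on listed genes, values without it are given beside the 180 min results of the members.

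Blood cell markers could be followed only where they were among the listed genes. Being listed already meant a difference between these same goats. The levels below therefore describe the listed markers and are no test of the cell types. At 180 min, 16.6% of all listed genes were called higher and 7.14% lower. Of 20 neutrophil markers, 7 were listed and 6 of them were called higher. Their summed level was 62392 to 189382 normalized counts in transported goats against 19502 to 79147 in controls. The 7 listed T cell markers of 17 (3 called lower) summed to 4583 to 9784 against 8663 to 16912, and the 3 listed monocyte markers of 10 (2 called higher) to 9216 to 31348 against 3052 to 10453. The only listed B cell marker of 14, MS4A1, was not called and ran from 1635 to 4769 against 3759 to 5196. The only listed NK cell marker of 10, NKG7, was called higher at 1992 to 3305 against 1053 to 2252, and the only listed platelet marker of 9, CLEC1B, was called higher at 0 to 67.6 against 0 to 4.51. Of 13 red cell markers CA2 alone was listed, not called, at 96.1 to 1086 against 232 to 492, and none of 10 eosinophil and basophil markers was listed. Collagen and decorin genes, the 3 listed connective tissue markers of 6, were not called. They summed to between 0 and 11.9 in transported goats and between 0 and 325.5 in controls. At 30 min no T cell or monocyte marker was listed, 2 neutrophil markers summed to 6314 to 10774 against 2007 to 7541, and 4 B cell markers to 8528 to 11998 against 8868 to 28276. The part of these marker differences in the enzyme results below was not tested.

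A member is said to be called, or to have risen or fallen, where limma on log2(normalized count + 1) gave a Benjamini-Hochberg adjusted p under 0.05 over all listed genes of its table. The tables hold only genes with an unadjusted p under 0.05 in the study's own test, made on these same goats, so being listed is not a result and the tests describe the listed genes rather than giving independent evidence.

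At 180 min, 2 of the 20 members rose, GYS1 and PGS1, and 3 fell, NSDHL, BDH2 and PTGES3L. Of all 1247 genes listed there, 16.6% were called higher and 7.14% lower, so the members' 2 and 3 of 20 are a smaller and a larger share. The remaining 15 members were not called by limma. In all, 9 members had a mean above and 11 a mean below the control, and the median log2 difference of the members was -0.53 against 0.68 over all listed genes. At an unadjusted limma p under 0.05, 11 of 20 members passed, against 62.4% of the listed genes. These counts moved with the goats and the tool. Without goat 10, 3 members were called higher (GYS1, PGS1 and DGAT2) and 4 lower (NSDHL, BDH2, PTGES3L and SQLE), whereas without goat 15, 16, 4 or 6 limma called 0 higher and 0 lower. With TMM, edgeR called 1 higher and 8 lower. TMM here took library sizes and factors from the listed genes alone. Their median share of reads was 10.8% in transported goats and 6.33% in controls, so this scale is not neutral. DESeq2 on the counts called 9 higher and 11 lower. The study listed its genes with DESeq2 on these same goats, so the DESeq2 calls largely restate the listing.

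At 30 min no member was called, against 1.86% of the 430 listed genes called higher and 0.233% called lower. The unadjusted limma p was under 0.05 for 3 of 7 members, MSRB3, SRD5A1 and ENTPD2, against 46.0% of the listed genes. DESeq2 on the counts called 1 member higher and 5 lower at an adjusted p under 0.05. The study listed these genes with DESeq2 on the same goats, so these calls too largely restate the listing. MSRB3 had a mean above the control and the other 6 a mean below it. The median log2 difference of the 7 was -1.04, and over all 430 listed genes it was -0.92.

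**Figure D1:**
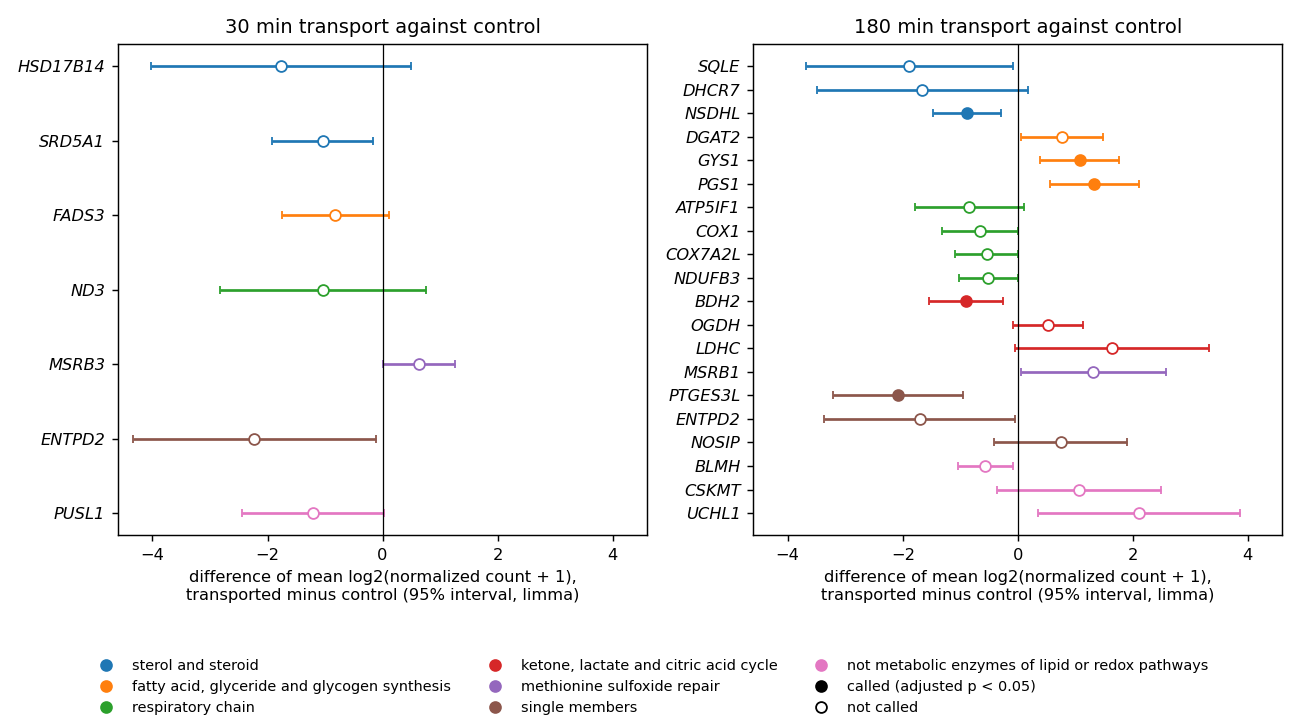
Difference of the mean log2(normalized count + 1), transported minus control, with the 95% interval of limma, for the 7 members at 30 min (left, 4 against 7 goats) and the 20 members at 180 min (right, 7 against 7 goats); colour marks the role of the gene and filled circles were called. At 180 min the sterol and respiratory chain members all lie left of 0 and the glycogen and lipid synthesis members right of it.

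The 3 cholesterol synthesis members had means below the control at 180 min, and NSDHL was the one called. NSDHL, the dehydrogenase that removes methyl groups from sterol precursors, is placed by the deposited annotation on an unplaced scaffold at positions 132656 to 160087, minus strand. In controls it ran from 209 to 350 normalized counts with a median of 270, and in transported goats from 68.0 to 207 with a median of 164. Every transported goat was below every control, though the nearest pair differed only by 207.1 against 208.8. The mean was 156 ± 46.5 (SD, n = 7) against 281 ± 62.2 (SD, n = 7), 1.80-fold lower, with a log2 difference of -0.88 (SE 0.27, limma adjusted p = 0.0430). The exact two-sided permutation p was 0.000583, the smallest that 3432 splits can give. Without goat 10 the difference was -0.85 (limma adjusted p = 0.0435), and the call ended in 10 of the 14 fits that each left out 1 goat (limma adjusted p 0.0508 to 0.0744). Across the listed genes, 1.20% had all transported goats below all controls and 1.84% had them all above, whereas 3 of the 20 members had the former and 0 the latter.

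SQLE, squalene epoxidase, a rate-limiting enzyme of cholesterol synthesis (chr14:66867923-66891330, plus strand), ran from 193 to 633 normalized counts in controls (median 406) and from 1.78 to 304 in transported goats (median 175). All 7 transported goats were under the control median and 5 were under the lowest control. The low end was goat 10, with 1 read, and the other 6 transported goats ran from 118 to 304. With all goats the log2 difference was -1.89 (SE 0.84, limma adjusted p = 0.0742, exact permutation p = 0.00408). Without goat 10 the difference was smaller and less variable, at -1.02 (SE 0.31, limma adjusted p = 0.0392, exact permutation p = 0.00758).

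DHCR7, the reductase of the last step to cholesterol (chr29:49318367-49333618, minus strand), ran from 62.3 to 203 normalized counts in controls (median 134) and from 0 to 96.3 in transported goats (median 71.5). Goat 10 had no read, which at its depth allows up to 5.34 normalized counts, and the other 6 transported goats lay between 59.4 and 96.3. The groups overlapped in the range set by control goats 1 and 3, the lowest of the controls at 62.3 and 95.4. The log2 difference was -1.66 (SE 0.86, limma adjusted p = 0.0959) with goat 10 and -0.77 (SE 0.28, limma adjusted p = 0.0574) without it.

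MSMO1, the sterol methyl oxidase that acts with NSDHL, belongs to the same pathway list but not to the 26 genes, since its description has no word of the rule. Its mean was 310 ± 128 normalized counts (SD, n = 7) in transported goats and 613 ± 171 (SD, n = 7) in controls, with 6 of 7 transported goats under the lowest control. Its log2 difference was -1.19 (SE 0.45, limma adjusted p = 0.0582), and -0.76 (limma adjusted p = 0.0376) without goat 10, which had 42.7. Of the cholesterol, isoprenoid and steroid list, 4 genes were listed at 180 min, all 4 with a mean below the control and 1 called, and their median log2 difference was -1.42 against 0.68 over all listed genes. Leaving out goat 10, the median of these 4 was -0.81, against 0.51 over all listed genes, and 3 of them (NSDHL, SQLE and MSMO1) were called lower. Of all listed genes, 7.14% were called lower, both with and without goat 10. In the same goats, 3 of 7 listed T cell markers were called lower and 6 of 7 listed neutrophil markers higher, as given above.

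**Figure D2:**
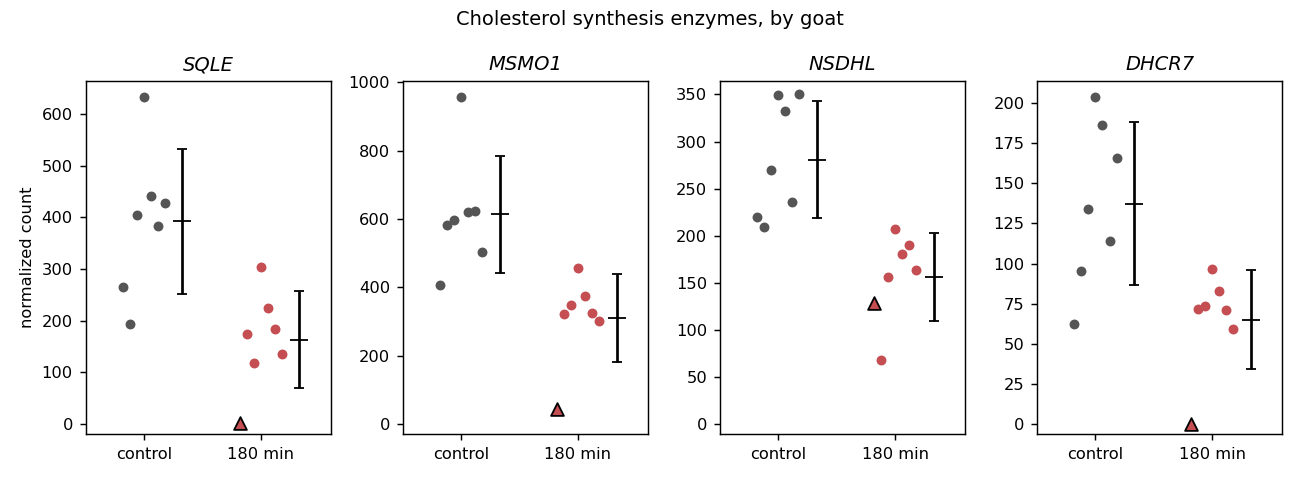
Normalized counts of SQLE, MSMO1, NSDHL and DHCR7 in each control goat (grey) and each 180 min goat (red), with goat 10 as a triangle; the bar beside each group is its mean and SD over 7 goats. All 7 transported goats lie under the control median for each gene, and goat 10 is the lowest transported goat in SQLE, MSMO1 and DHCR7 but not in NSDHL.

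The other two members of the steroid group were listed at 30 min. SRD5A1, the reductase that turns testosterone into dihydrotestosterone (chr20:66523453-66557607, minus strand), had 14.2, 31.5, 46.2 and 63.1 normalized counts in the 4 transported goats and 50.7 to 107 in controls (median 67.4). Of the 4 transported goats, 3 were below the lowest control and the highest was among the controls. The mean was 38.7 ± 20.9 (SD, n = 4) against 73.7 ± 23.0 (SD, n = 7), with a log2 difference of -1.04 (SE 0.40, limma adjusted p = 0.103, exact permutation p = 0.0212), and -0.64 (limma adjusted p = 0.208) without goat 24.

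HSD17B14, a hydroxysteroid dehydrogenase that oxidises estradiol (chr18:56444678-56463983, minus strand), was carried by very few reads. One read was counted over the 4 transported goats, in goat 27, and 73 over the 7 controls, of which 44 came from goat 3, while 3 controls had none. The rate ratio of transported to control was 0.0261, with an exact 95% interval for counting error only of 0.000651 to 0.150. Between goats the spread was wide, and the log2 difference of -1.77 (SE 1.03) had a limma adjusted p of 0.141, and was -1.16 without control goat 3. RefSeq places a non-coding locus over this gene, and the library kit does not mark strand.

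The 3 members of glycogen, phospholipid and triglyceride synthesis had means above the control at 180 min, and the 2 members called higher, GYS1 and PGS1, were among them. GYS1, the glycogen synthase of tissues other than liver (chr18:56560595-56575948, minus strand), ran from 624.9 to 1472 normalized counts in controls (median 1055) and from 1294 to 4061 in transported goats (median 1880). All 7 transported goats were above the control median and 4 were above the highest control, with the top values in goats 15 and 16. The mean of 2277 ± 1072 (SD, n = 7) was 2.21 times the control mean of 1032 ± 314 (SD, n = 7), and on the log2 scale the difference was 1.07 (SE 0.32, limma adjusted p = 0.0411, exact permutation p = 0.00408). Without goat 10 the difference was 1.16 (limma adjusted p = 0.0369), but the call ended when any of 8 other goats was left out (limma adjusted p 0.0503 to 0.0728). It also ended with edgeR and TMM, scaled on the listed genes alone as said above, with a log2 fold change of 0.66 (edgeR adjusted p = 0.105).

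PGS1, which makes the phosphatidylglycerophosphate that is turned into cardiolipin, the lipid of the inner mitochondrial membrane (chr19:52940412-53030476, minus strand), ran from 1039 to 4276 normalized counts in controls (median 1992) and from 2749 to 8535 in transported goats (median 4836). All transported goats exceeded the control median, and 4 exceeded the highest control, goat 3. The mean was 5110 ± 2173 (SD, n = 7) against 2102 ± 1114 (SD, n = 7), 2.43 times the control, with a log2 difference of 1.33 (SE 0.37, limma adjusted p = 0.0356, exact permutation p = 0.00408). Without goat 10 it was 1.22 (limma adjusted p = 0.0392), and leaving out any of 6 other goats ended the call (limma adjusted p 0.0579 to 0.0708). RefSeq places DNAH17 over part of PGS1, and reads of overlapping genes may have been shared.

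DGAT2, the acyltransferase of the last step of triglyceride synthesis (chr15:27720975-27753988, minus strand), ran from 244 to 530 normalized counts in controls (median 424) and from 309.6 to 1209.8 in transported goats (median 768). Goat 10 was the lowest transported goat and goat 11 the highest, and 5 of 7 lay above the highest control. The log2 difference of 0.77 (SE 0.33) had a limma adjusted p of 0.0702 and an exact permutation p of 0.0344. Without goat 10 it was 0.95 (SE 0.30) with a limma adjusted p of 0.0423.

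Other genes of fatty acid and lipid synthesis were few in the table. With DGAT2, 6 genes of that fixed list were listed at 180 min, 5 above the control and 1 below. GPAT3 was the one called, joined by DGAT2 without goat 10. Over all listed genes, 59.4% had means above the control and 16.6% were called higher, or 17.6% without goat 10. GPAT3, the acyltransferase of the first step of glycerolipid synthesis, had 498 ± 124 normalized counts (SD, n = 7) compared with 306 ± 91.0 (SD, n = 7), and on the log2 scale the difference was 0.72 (SE 0.25, limma adjusted p = 0.0491). DGAT1, the other triglyceride synthase, had a mean of 1090.0 ± 1297 (SD, n = 7) against 439 ± 159 (SD, n = 7), with a limma adjusted p of 0.115 and a highest value of 3976, in goat 10. Without that goat the DGAT1 mean was 609 ± 275 (SD, n = 6), 1.39 in place of 2.49 times the control. Triglyceride and phospholipid hydrolysis had 3 listed genes (LIPE, ABHD5 and PLA2G7), all with means above the control and none called; without goat 10, PLA2G7 was called (limma adjusted p = 0.0432).

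**Figure D3:**
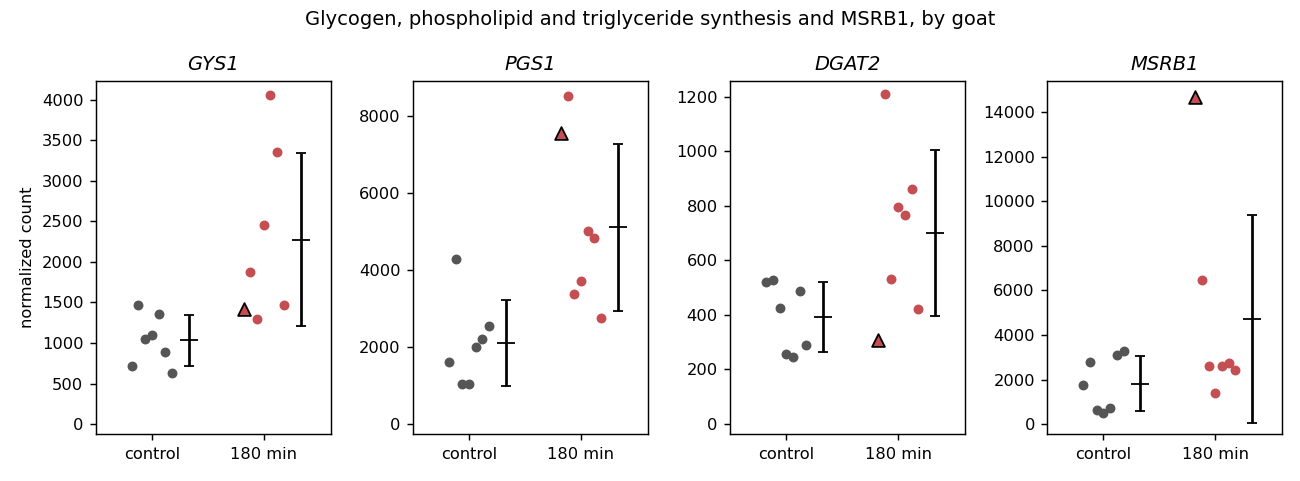
Normalized counts of GYS1, PGS1, DGAT2 and MSRB1 in each control goat (grey) and each 180 min goat (red), with goat 10 as a triangle; bars are the mean and SD over 7 goats. Transported goats reach above the highest control in all 4 genes, by 4 goats in GYS1 and PGS1, 5 in DGAT2 and 2 in MSRB1.

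FADS3, a desaturase of sphingoid bases (chr29:40744471-40759375, minus strand), was the lipid synthesis member of the 30 min table. It had 286, 342, 413 and 457 normalized counts in transported goats and 362 to 1386 in controls (median 616). The transported goats lay within a narrow band at the low end, and control goats 8 and 9 were highest at 1386 and 1257. Means of 374 ± 75.6 (SD, n = 4) and 742 ± 420 (SD, n = 7) gave a log2 difference of -0.82 (SE 0.42, limma adjusted p = 0.119, exact permutation p = 0.0818). Centring on the median listed gene brought the difference to -0.13 (limma adjusted p = 0.773). That setting moves all listed genes of a table by the same amount, set by genes that were listed as different. Of the 430 genes here, 303 had means below the control, so the centred scale is not neutral. CERS4, a ceramide synthase with a domain label, had 301 ± 34.7 (SD, n = 4) against 620 ± 249 (SD, n = 7) and was not called (limma adjusted p = 0.103).

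The 4 respiratory chain members of the 180 min table all had means below the control, and none was called. COX1 here is the mitochondrially encoded catalytic subunit of cytochrome c oxidase (positions 5329 to 6873 of the mitochondrial genome), not cyclooxygenase. It ran from 380 to 1049.5 normalized counts in controls (median 656) and from 212 to 599 in transported goats (median 424), lowest in goats 10 and 11. The log2 difference was -0.66 (SE 0.31, limma adjusted p = 0.0810) with goat 10 and -0.50 (limma adjusted p = 0.128) without it. Mitochondrial reads can also align to nuclear copies, so its level is uncertain.

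NDUFB3, an accessory subunit of the NADH dehydrogenase complex (chr2:46294935-46298280, minus strand), had 215 ± 42.7 normalized counts (SD, n = 7) compared with 314 ± 88.8 (SD, n = 7), with 4 transported goats under the lowest control. Its log2 difference was -0.51 (SE 0.24, limma adjusted p = 0.0821, exact permutation p = 0.0239). COX7A2L, which joins complexes of the chain into larger assemblies (chr11:24636604-24649820, minus strand), had 265 ± 71.2 (SD, n = 7) against 388 ± 107 (SD, n = 7), and on the log2 scale the difference was -0.54 (SE 0.26, limma adjusted p = 0.0823). In both genes every transported goat was under the control median. Without goat 10 the differences were -0.51 (limma adjusted p = 0.0935) for NDUFB3 and -0.46 (limma adjusted p = 0.117) for COX7A2L.

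ATP5IF1, the inhibitor that stops ATP synthase from running in reverse (chr2:10824696-10826589, plus strand), ran from 273 to 492 normalized counts in transported goats (median 390) and from 297 to 2188 in controls (median 586). The spread lay in the controls, where goats 1, 8 and 9 had 1625, 974 and 2188 and goats 3, 4 and 7 had 297 to 357, among the transported goats. Its mean of 393 ± 82.9 (SD, n = 7) against 912 ± 735 (SD, n = 7) gave a log2 difference of -0.85 (SE 0.44, limma adjusted p = 0.0980, exact permutation p = 0.0950), and also -0.85 (limma adjusted p = 0.127) without goat 10.

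**Figure D4:**
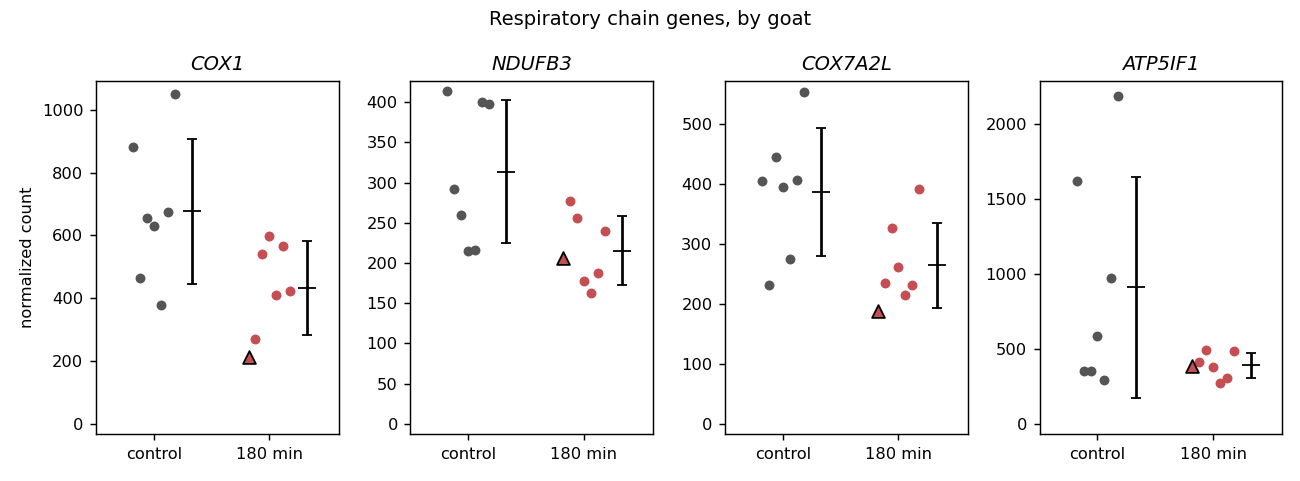
Normalized counts of COX1, NDUFB3, COX7A2L and ATP5IF1 in each control goat (grey) and each 180 min goat (red), with goat 10 as a triangle; bars are the mean and SD over 7 goats. All transported goats lie under the control median in the 4 genes and the groups overlap in each, most in ATP5IF1, where 3 controls reach from 974 to 2188.

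At 30 min the one respiratory chain member was ND3, a mitochondrially encoded NADH dehydrogenase subunit (positions 9462 to 9807 of the mitochondrial genome). It had 11.6, 27.5, 30.7 and 41.5 normalized counts in transported goats and 15.3 to 274 in controls (median 54.6). Control goats 8 and 9 were again highest, at 182 and 274, and the lowest controls lay among the transported goats. The log2 difference was -1.03 (SE 0.81, limma adjusted p = 0.237), and -0.67 without goat 24 or -0.64 without control goat 9. Centring on the median listed gene, with the limit given for FADS3, brought it to -0.34 (limma adjusted p = 0.733).

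Among the dehydrogenases of fuel use, BDH2 fell at 180 min. BDH2, a cytosolic dehydrogenase named for ketone body oxidation and also linked to iron handling (chr6:22037798-22065822, plus strand), ran from 148 to 224 normalized counts in controls (median 189) and from 33.8 to 139.8 in transported goats (median 109). No transported goat reached the lowest control, and goat 10 was far below the other 6, which lay between 108 and 139.8. The mean was 107 ± 35.4 (SD, n = 7) against 187 ± 29.4 (SD, n = 7), 1.75-fold lower, with a log2 difference of -0.90 (SE 0.30, limma adjusted p = 0.0480, exact permutation p = 0.000583, the smallest possible). Without goat 10 the groups still did not overlap, and the difference was -0.65 (SE 0.18, limma adjusted p = 0.0376). The call ended in 11 of 14 fits with 1 goat left out (limma adjusted p 0.0513 to 0.0787), with a pseudocount of 0.1 (0.0514) and with scaling by effective library size (0.0558).

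OGDH, the oxoglutarate dehydrogenase of the citric acid cycle (chr4:43359663-43414253, plus strand), varied little in controls, from 1639 to 2224 normalized counts. In transported goats 6 values lay between 1961 and 3063 and goat 10 had 7205. All 7 were above the control median, the log2 difference was 0.53 (SE 0.29, limma adjusted p = 0.107), and without goat 10 it was 0.30 (SE 0.19, limma adjusted p = 0.161). LDHC, the lactate dehydrogenase of testis (chr29:25640255-25678681, minus strand), was low, at 16.8 to 140 normalized counts in transported goats (median 53.4) and 0 to 51.3 in controls (median 29.9). Goats 14, 15 and 16 had 114 to 140 and control goat 9 had none, and the log2 difference of 1.63 (SE 0.79) had a limma adjusted p of 0.0848, and 0.109 without goat 10. Leaving out control goat 9 brought the difference to 0.91 (limma adjusted p = 0.105).

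Of the fixed list for mitochondrial energy and uncoupling, 5 genes were listed at 180 min, 2 above and 3 below the control, with 0 called higher and 2 called lower, beside 16.6% and 7.14% of all listed genes. The second, beside BDH2, was UCP1, the uncoupling protein of brown fat, which has a domain label and so is not a member. It had 7.14 ± 5.61 normalized counts (SD, n = 7) in transported goats and 35.1 ± 13.01 (SD, n = 7) in controls, and on the log2 scale the difference was -2.64 (SE 0.65, limma adjusted p = 0.0296), or -2.24 (limma adjusted p = 0.0330) without goat 10. UCP1 was carried by few reads, 72 in all over the transported goats, 2 of which had none, and 6 to 72 in each control.

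The methionine sulfoxide reductases had means above the control in both tables, and neither was called. MSRB1, a selenoprotein of cytosol and nucleus (chr25:1415613-1417987, minus strand), ran from 479 to 3264 normalized counts in controls (median 1758) and from 1415 to 14654 in transported goats (median 2605). Goats 10 and 11 had 14654 and 6484, and the other 5 transported goats lay within the range of the controls. The log2 difference was 1.31 (SE 0.59, limma adjusted p = 0.0752) with goat 10 and 0.96 (SE 0.53, limma adjusted p = 0.125) without it.

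MSRB3, the family member of endoplasmic reticulum and mitochondria (chr5:47674806-47863173, minus strand), had 122, 167, 179 and 255 normalized counts in the 30 min goats and 83.1 to 176 in controls (median 114). All 4 transported goats were above the control median and 2 were above the highest control. Means of 181 ± 55.2 (SD, n = 4) and 115 ± 30.1 (SD, n = 7) gave a log2 difference of 0.63 (SE 0.28, limma adjusted p = 0.104, exact permutation p = 0.0273). Centred on the median listed gene, the difference was 1.32 and MSRB3 passed the threshold (limma adjusted p = 0.0204). The limit given for FADS3 holds here too, so that pass is no separate evidence for MSRB3. It also passed with DESeq2 (DESeq2 adjusted p = 0.0470), the tool of the listing.

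The fixed antioxidant and thiol redox list had 8 genes in the 180 min table, 7 with means above and 1 below the control, and none was called, with 3 at an unadjusted limma p under 0.05. Over all listed genes 59.4% had means above the control, 16.6% were called higher and 62.4% passed the unadjusted threshold. MGST1, a membrane glutathione transferase, was in both tables. At 180 min it had 1921 ± 1287 normalized counts (SD, n = 7) compared with 713 ± 200 (SD, n = 7), with a limma adjusted p of 0.0959, and 2209 ± 1136 (SD, n = 6) without goat 10, and on the log2 scale the difference was 1.53 (limma adjusted p = 0.0272). Goat 10 had 194, below every control, while the other 6 transported goats were all above every control.

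PTGES3L had the lowest adjusted p of the members. It is related in sequence to a co-chaperone that also has prostaglandin synthase activity (chr19:42678816-42688117, minus strand), and its level was low. Transported goats had 0 to 6.63 normalized counts (median 3.20), from at most 12 reads, and controls had 7.86 to 40.04 (median 11.3), from 4 to 43 reads. The groups did not overlap, and control goat 9 was far above the other 6 controls. The mean was 3.36 ± 2.66 (SD, n = 7) against 15.4 ± 11.2 (SD, n = 7), with a log2 difference of -2.08 (SE 0.53, limma adjusted p = 0.0316, exact permutation p = 0.000583, the smallest possible), and -1.79 (limma adjusted p = 0.0352) without goat 10. The call ended without goat 15, 16, 4 or 6 (limma adjusted p 0.0519 to 0.0628), with a pseudocount of 0.1 (0.0503), and with edgeR under TMM (edgeR adjusted p = 0.0510) or the deposited size factors (0.0513).

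ENTPD2, a cell-surface enzyme that splits extracellular ATP (chr11:106187488-106192894, plus strand), was the member listed in both tables. At 30 min goat 22 had 7 reads, or 5.59 normalized counts, and the other 3 transported goats had none, while controls ran from 0 to 37.0 (median 6.21). At 180 min transported goats ran from 0 to 6.63 (median 2.92), with no read in 3 of 7, against 0 to 39.1 in the same controls on the scale of that table. Control goats 3 and 9 held the high values, and control goat 8 had no read. The log2 differences were -2.23 (SE 0.96, limma adjusted p = 0.104) at 30 min and -1.71 (SE 0.78, limma adjusted p = 0.0768) at 180 min, and neither was called. Without goat 10 the latter was -1.49 (limma adjusted p = 0.124).

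The transported groups were also compared with each other for ENTPD2, without the control goats. On the CPM scale of the effective library size, ENTPD2 averaged 0.119 ± 0.131 (SD, n = 7) after 180 min, 0.0766 ± 0.153 (SD, n = 4) after 30 min and 0.664 ± 0.780 (SD, n = 7) without transport. The log2(CPM + 1) difference of 0.06 between the transported groups had an exact two-sided permutation p of 0.558 over 330 splits. At this depth no difference between the lengths of transport was detectable for this gene. RefSeq places non-coding loci over it.

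NOSIP, a ubiquitin ligase that binds nitric oxide synthase (chr18:56998671-57001972, minus strand), ran from 612 to 1939 normalized counts in controls and from 831 to 10772 in transported goats. The high end was goat 10, followed by goat 11 at 3918, and the other 5 transported goats were within the range of the controls. Its log2 difference was 0.74 (SE 0.54, limma adjusted p = 0.203), and 0.32 (limma adjusted p = 0.449) without goat 10.

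UCHL1, BLMH, CSKMT and PUSL1, the protein- and RNA-modifying members, were not called. BLMH, a cysteine protease, had 274 ± 67.4 normalized counts (SD, n = 7) at 180 min against 399.5 ± 59.3 (SD, n = 7), with 4 transported goats under the lowest control (log2 difference -0.56, limma adjusted p = 0.0615, or -0.48 and 0.0743 without goat 10). UCHL1, a deubiquitinating enzyme of neurons, had 0 to 89.0 against 0 to 8.24, with 50 of its reads in goat 10 (log2 difference 2.10, SE 0.82, limma adjusted p = 0.0608). Its mean was 19.99 ± 30.9 (SD, n = 7) with goat 10 and 8.50 ± 6.30 (SD, n = 6) without it, with a limma adjusted p of 0.0867, and 0.0456 when goat 11 was left out instead. CSKMT, which methylates citrate synthase, had a mean of 124 ± 170 (SD, n = 7) against 43.5 ± 35.2 (SD, n = 7), with 499.9 in goat 10 (limma adjusted p = 0.148). Its mean without goat 10 was 61.8 ± 39.7 (SD, n = 6). PUSL1, at 30 min, had 11.6, 21.6, 49.5 and 55.0 against 29.2 to 140.1 in controls (log2 difference -1.21, SE 0.56, limma adjusted p = 0.109, or -0.79 without goat 24), and RefSeq places CPSF3L over it.

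**Figure D5:**
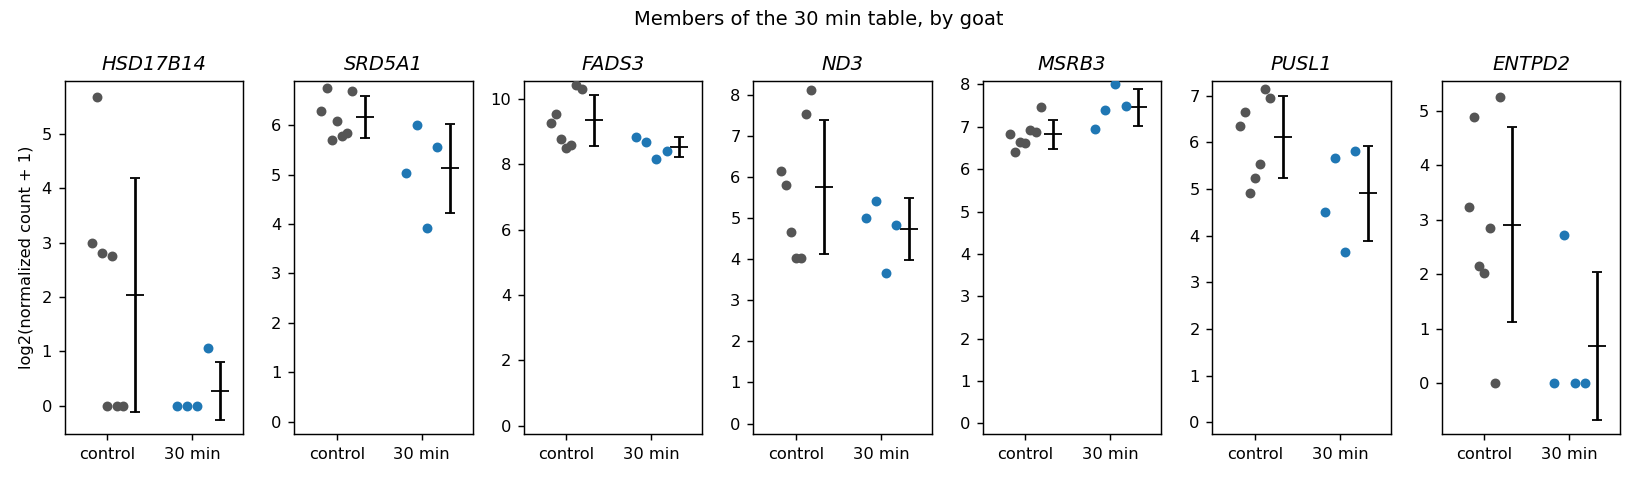
Log2(normalized count + 1) of the 7 members of the 30 min table in each control goat (grey, n = 7) and each 30 min goat (blue, n = 4); bars are the mean and SD. MSRB3 is the member with all 4 transported goats above the control median, the other 6 have all 4 below it, and in each panel the groups overlap; across the 430 listed genes 6.51% had all transported goats above all controls and 1.63% had them all below.

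Levels of different genes were compared per length, as FPKM in the control goats. MSRB1 was highest at a mean of 260 FPKM, followed by ATP5IF1 at 136, NOSIP at 60.3, COX7A2L at 53.8 and NDUFB3 at 51.0. FADS3, OGDH, GYS1 and COX1 followed at 23.9, 22.1, 22.05 and 21.1 FPKM, close together beside the spread between goats. Sterol enzymes were lower, SQLE at 4.87, DHCR7 at 3.72 and NSDHL at 2.47 FPKM, and PTGES3L, ENTPD2 and UCHL1 were at 1.83, 0.376 and 0.0558. Gene models of MSRB1, ATP5IF1, NDUFB3 and COX7A2L are short, at 345, 330, 297 and 345 bases, and FPKM of short models is uncertain.

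The enzymes with a domain label, which the rule leaves out, are given for context at 180 min. Of these 17 genes, 14 (82.4%) had means above the control and 3 below, against 59.4% above over all listed genes, with 3 called higher (DAGLB, GPAT3 and NUDT7) and 2 called lower (PTGR1 and UCP1), and their median log2 difference was 0.82. Over all listed genes 16.6% were called higher and 7.14% lower. Without goat 10, 4 of the 17 were called higher and 2 lower, beside 17.6% and 7.14% of all listed genes. STEAP4 was then called higher (log2 difference 1.44, limma adjusted p = 0.0392), and with all goats it was not (limma adjusted p = 0.177). PTGR1, a reductase that inactivates prostaglandins and leukotrienes, had 207 ± 74.5 normalized counts (SD, n = 7) compared with 496 ± 132 (SD, n = 7), with no overlap of the groups and a log2 difference of -1.32 (SE 0.30, limma adjusted p = 0.0295), and -1.32 (limma adjusted p = 0.0289) without goat 10. Another 17 listed genes of the fixed pathway lists had 14 means above and 3 below, with 5 called higher (ECI2, UPP1, CRYL1, SDSL and SDS) and 0 lower, and a median of 0.99. Without goat 10, 6 of these were called higher and 1 lower. ECI2, UPP1 and SDSL were not called without goat 10 (limma adjusted p = 0.0605, 0.0613 and 0.0644). At 30 min, 1 of 7 domain-labelled enzymes, the metalloreductase STEAP4, had a mean above the control and 6 had means below, and none was called.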

How the data were processed

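Whole-blood RNA-seq of 18 goats was used (poly(A) libraries with globin mRNA removed, fastp, HISAT2 and StringTie per the study's methods); the genome build and the counting tool are not given in the sources used here. The authors deposited 1 table per comparison, limited to genes with an unadjusted p under 0.05, with raw counts, a normalized count (a signal: the count divided by 1 size factor per goat and table) and FPKM for each goat. Columns with the authors' fold changes and p-values were not used. Size factors were recovered from count and normalized count, and effective library sizes from count, gene length and FPKM.

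Each table was fitted with limma 3.58.1 (R 4.3.3) on log2(normalized count + 1), without covariates, with Benjamini-Hochberg adjustment over all genes listed in that table, which is not an adjustment over all expressed genes. The design had taken this test in place of edgeR's because the tables lack unchanged genes. Exact two-sided permutation tests over goats were run per gene (330 splits for 4 against 7, 3432 for 7 against 7). Alternatives were edgeR 4.0.16 with deposited size factors or TMM, DESeq2 1.42.0, pseudocounts of 0.1 and 10, a mean normalized count of at least 10, scaling by effective library size, centring on the median listed gene, the permutation test, the unadjusted p, and leaving out each goat. TMM and centring had only listed genes to work on, all chosen as different, so neither gives a neutral scale. The summaries without goat 10 were added after the data had been seen. Scripts were tested on simulated data.

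The members and lists were chosen with earlier results of these data known. Members named in full were those in both tables, those whose groups do not overlap, and within each role group the 3 called members with the largest difference and a mean of at least 50 normalized counts and the 2 most abundant that were not called; the remaining members were then added, so all 26 appear. Of the 26, 22 were matched by symbol in the RefSeq table, used only to see which genes overlap. Coordinates are those of the deposited tables, whose build is not named in them. Intervals and floors (3 counts) cover counting error only. Goat numbers differ between groups, so no goats were paired, and each goat was taken as a separate animal. Between 2 goats of a group, at most 1.42% of the listed genes with a mean of at least 10 reads in that pair had equal counts.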

Additional observations from a re-analysis of the deposited data

Results flagged for a closer look

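In 8 of 54 groups of goats (each member in each group of each table) the highest or lowest goat stood apart from the rest of its group by Dixon's test; chance flags about 1 in 20. Goat 10 was the goat in 4 of them, all at 180 min: BDH2 at 33.8 normalized counts against 108 to 139.8 in the other 6 goats, SQLE at 1.78 against 118 to 304, OGDH at 7205 against 1961 to 3063, and DHCR7 at 0 against 59.4 to 96.3. Control goat 9 was the goat in another 2, PTGES3L at 40.04 against 7.86 to 15.5 and LDHC at 0 against 18.8 to 51.3. The last 2 come from 30 min goats of which 3 of 4 had no read: HSD17B14 at 1.10 in goat 27, from 1 read, and ENTPD2 at 5.59 in goat 22, from 7 reads. With the other 3 goats at 0 the test flags any value above 0, so these 2 cannot be set against the chance rate.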

How the results depend on the processing

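Over 239 refits of single members under 9 other settings and 357 refits with 1 goat left out, no member changed direction. DESeq2 is the tool with which the study listed these genes, so its counts below largely restate the listing. At 30 min the count of members called higher was 0, and 1 with DESeq2, with centring on the median listed gene or at an unadjusted p; the count lower was 0, and 5 with DESeq2 or 2 at an unadjusted p. At 180 min the count higher was 2, and 9 with DESeq2, 1 with edgeR and TMM, 4 with edgeR and deposited size factors, or 5 at an unadjusted p; the count lower was 3, and 11 with DESeq2, 8 with edgeR and TMM, 5 after centring, 6 with the exact permutation test, 1 with a pseudocount of 0.1, or 6 at an unadjusted p; it was also 4 with edgeR and deposited size factors or a pseudocount of 10, 2 with effective library size, and 3 with the filter on the mean, where PTGES3L was filtered out and BLMH was called. With 1 goat left out, the count higher at 180 min ran from 0 (without goat 15, 16, 1, 4 or 6) to 3 (without goat 10) and was 1 without goat 11, 14 or 8; the count lower ran from 0 (without goat 15, 16, 4 or 6) to 4 (without goat 10) and was 1 without goat 11, 17, 1, 7 or 8. Calls ended for BDH2 in 11 of 14 such fits (limma adjusted p 0.0513 to 0.0787), NSDHL in 10 (0.0508 to 0.0744), GYS1 in 8 (0.0503 to 0.0728), PGS1 in 6 (0.0579 to 0.0708) and PTGES3L in 4 (0.0519 to 0.0628), while their differences kept their sign; calls appeared for DGAT2 and SQLE without goat 10 and for UCHL1 without goat 11 (limma adjusted p = 0.0456). Centring moved the median log2 difference of all listed genes from -0.92 to -0.23 at 30 min and from 0.68 to 0.49 at 180 min, and with edgeR and TMM together the latter was 0.27; the members' median moved from -1.04 to -0.35 with centring at 30 min, and from -0.53 to -0.71 with centring and -0.96 with edgeR and TMM at 180 min. The listed genes called higher and lower changed from 8 and 1 to 118 and 3 with centring at 30 min, and from 207 and 89 to 148 and 223 with centring, 140 and 363 with edgeR and TMM, which changes the test and the scaling at once, and 222 and 61 with effective library size at 180 min. In each of these settings 1 member was above and 6 below 0 at 30 min, and 9 above and 11 below at 180 min. Centring and TMM drew their scale from the listed genes alone, which were chosen as different, so counts under them are no neutral check. The cause of these changes was not tested. Among the members HSD17B14, ENTPD2, PTGES3L and UCHL1 rest on few reads, as does UCP1 outside them.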

Other observations

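Amino acid and nucleotide enzymes were among the listed genes at 180 min. All 4 listed genes of that fixed list had means above the control and 3 were called higher: SDS and SDSL, serine dehydratases that make pyruvate from serine, and UPP1, a uridine phosphorylase, of which SDSL and UPP1 were not called without goat 10. Of all listed genes, 59.4% had means above the control and 16.6% were called higher. SDS was the most abundant of them, at 211103 ± 66211 normalized counts (SD, n = 7) compared with 105711 ± 64798 (SD, n = 7), and on the log2 scale the difference was 1.18 (SE 0.38, limma adjusted p = 0.0470), and 1.22 (limma adjusted p = 0.0439) without goat 10. ARG2, the mitochondrial arginase, had 1468 ± 715 (SD, n = 7) against 708 ± 297 (SD, n = 7), with a limma adjusted p of 0.0552, and 0.0352 without goat 10.

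In the 30 min table UCP3, DUOX1 and ACOT12, an uncoupling protein, an oxidase that makes hydrogen peroxide and an acyl-CoA hydrolase, had no read in any of the 4 transported goats, with control means of 3.30 ± 3.85, 9.74 ± 20.3 and 5.84 ± 9.69 normalized counts (SD, n = 7). Of the 7 controls, 1 had no UCP3 read, 4 had no DUOX1 read and 3 no ACOT12 read, and 80.5% of the DUOX1 total was in control goat 8. None of the 3 was called by limma.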
